A study of Homo sapiens with 6 samples.

Results

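EMX1, EMX2, DMRT3, DMRTA1 and DMRTA2 are 5 genes that pattern the pallium, the dorsal territory of the embryonic forebrain from which the cerebral cortex forms. They were examined in a genome-wide map of the homeodomain factor GSX2, which marks progenitors of the neighbouring lateral ganglionic eminence (LGE). Peaks whose strongest summit had 1 of these genes as its nearest protein-coding gene were collected and merged over the 3 replicates wherever they overlapped, which gave 21 regions of 15743 in all. EMX2 had 13 of them, DMRTA1 6, DMRT3 and DMRTA2 1 each, and EMX1 none. Genes and distances were taken from RefSeq on the hg38 assembly.

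The chromatin came from LGE-like progenitors made from H9, a widely used line of human embryonic stem cells. All of them carried a wild-type 2xFLAG-GSX2 transgene under the doxycycline-responsive TRE3G promoter and received 100 ng/mL doxycycline for 12 hours from day 10. Chromatin of day 10.5 was precipitated with the M2 antibody to FLAG in 3 numbered replicates, which form the only group. The tagged protein comes from a transgene and adds to any GSX2 of the cells' own. The labels state neither whether the line is 1 clone nor whether the replicates are separate cultures, and their spread may therefore be partly technical. The 3 input libraries, from 2% of the chromatin, were not analysed here, and there is no contrast between conditions. Expression was not measured in these files, so the cell identity given by the labels was not checked. The lists used held 9859, 7471 and 9122 peaks in replicates 1, 2 and 3, and gave no read counts, which leaves the depth unknown.

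EMX1 and EMX2 encode homeodomain factors of the dorsal telencephalon, and in the mouse Emx2 is graded across the cortical primordium, highest caudomedially, and favours caudomedial area identity. DMRT3, DMRTA1 and DMRTA2 encode DM-domain zinc finger factors with overlapping caudomedial expression in the mouse pallium, where Dmrt3 and Dmrta2 hold back Gsx2 and ventral fates. Gsx2 in turn restrains dorsal genes in the mouse LGE, so the pallial genes and Gsx2 stand on opposite sides of the boundary between pallium and subpallium.

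The EMX2 start site carried a GSX2 peak in replicates 1 and 2, and the bases beneath it held a TAATTA core. Homeodomain proteins as a class bind cores of the TAAT type. The RefSeq promoter window of EMX2, 250 bases before to 50 after the start, lies at chr10:117542496-117542795 on the plus strand of GRCh38.p14. It is shown because both summits fall in it, and capitals mark every TAAT or its reverse complement ATTA:
EMX2 promoter: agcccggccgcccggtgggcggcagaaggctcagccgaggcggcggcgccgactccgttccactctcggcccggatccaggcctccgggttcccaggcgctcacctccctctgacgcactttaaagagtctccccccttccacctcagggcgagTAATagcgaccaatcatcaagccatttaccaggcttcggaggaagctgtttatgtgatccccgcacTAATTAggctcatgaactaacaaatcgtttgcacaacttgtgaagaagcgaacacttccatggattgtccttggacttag
The word TAATTA, which is its own reverse complement, begins at base 221 of this window, 30 bases before the start site, and contains 1 TAAT and 1 overlapping ATTA. Another TAAT begins at base 155. The summit of replicate 1 was at base 214 of the window, 9.5 bases from the centre of TAATTA, and that of replicate 2 at base 172, 51.5 bases from it and 15.5 from the centre of the nearest TAAT. The longer word, TAATTA, occurs in 4.85% of 34943 RefSeq promoter windows of this length, and TAAT on either strand in 50.3%, so TAAT alone is common. Among the 1086 windows that overlap a GSX2 region, as that of EMX2 does, the shares are 10.6% and 70.3%. A match describes the letters and does not show which bases were bound.

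The other promoter window shown with a region over it belongs to LINC02674, a long noncoding RNA gene 192 kb downstream of the EMX2 start. Its window, chr10:117734669-117734968 on the plus strand, lay wholly inside the peak of replicate 3 and shared 119 bases with that of replicate 2. Both summits lay just before its first base, by 19 bases in replicate 3 and 21 in replicate 2:
LINC02674 promoter: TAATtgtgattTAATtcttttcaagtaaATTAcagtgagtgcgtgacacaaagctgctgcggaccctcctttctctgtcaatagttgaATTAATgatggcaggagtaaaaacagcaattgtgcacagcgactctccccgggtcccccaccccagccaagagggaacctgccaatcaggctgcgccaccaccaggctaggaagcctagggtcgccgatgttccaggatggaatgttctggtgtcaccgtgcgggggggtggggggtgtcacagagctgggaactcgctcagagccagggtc
It holds 5 TAAT or ATTA words and no TAATTA. At least 4 such words occur in 12.3% of all promoter windows and in 14.5% of those that overlap a GSX2 region. The shares with at least 5 were not counted and can be no higher than these. They begin at bases 1, 12, 29, 89 and 91, on the side of the window nearer to the summits, and the words at 89 and 91 overlap.

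RefSeq windows of DMRT3, DMRTA1 and DMRTA2 overlapped no region, and each held 1 TAAT or ATTA and no TAATTA. The 30 bases around that word are given for comparison with EMX2. The windows are chr9:976405-976704 (plus strand), chr9:22446574-22446873 (plus strand) and chr1:50423394-50423693 (minus strand):
DMRT3: ctggctcagacctTAATcagagctgtcgcc
DMRTA1: gaggcacaaaggcATTAacttagcgcccgg
DMRTA2: gtccaattctgtcTAATggagccctaagga
Promoter windows matched for 4 of the 5 genes, all except EMX1. For the peaks away from start sites no sequence was read.

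EMX2 was surrounded by GSX2 regions on both sides. Its 13 regions lay in 3 places, namely 2 more than 30 kb upstream in the body of its antisense gene EMX2OS, 6 within 30 kb of the start site, and 5 in a distal group 188 to 213 kb downstream. Of the 13, 6 held a peak of every replicate, as did 22.5% of all regions, 5 held peaks of 2 replicates and 2 a peak of replicate 3 only. EMX2 spans 117542746 to 117549546 on chromosome 10, plus strand, and none of the 13 strongest summits was inside that span. Its protein-coding neighbours are PDZD8, a lipid-transfer protein gene 167.3 kb away on the upstream side, and RAB11FIP2, which encodes a Rab11 effector, 455.4 kb away on the downstream side.

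**Figure D1:**
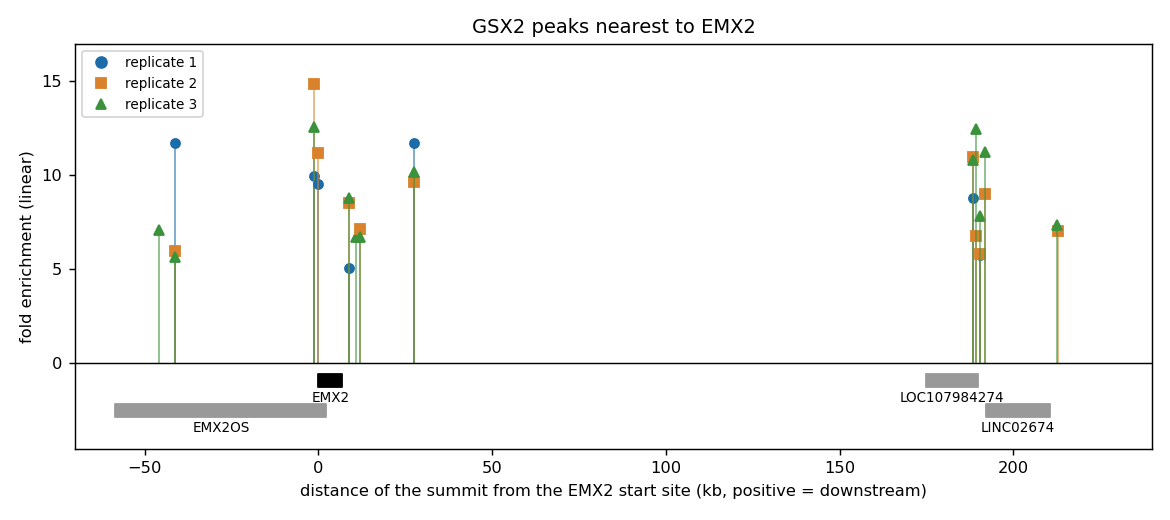
Fold enrichment of each peak nearest to EMX2 (vertical axis, linear) against the distance of its summit from the EMX2 start site (horizontal axis, kb, positive downstream), coloured and shaped by replicate, with gene spans below as bars. Peaks stand at the start site, around the gene to 27.4 kb, farther upstream in EMX2OS, and 188 to 213 kb downstream. There are none between 27.4 and 188 kb.

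The region just upstream of the gene was the strongest of EMX2 by its mean. It lay at chr10:117541181-117541698, inside EMX2OS, with its summit 1.37 kb before the start site, and reached a fold enrichment of 9.95, 14.9 and 12.6 in replicates 1, 2 and 3 (12.5 ± 2.5, SD, n = 3). Fold enrichment here is the authors' own value, the height of a peak at its summit over the background of the peak caller. The 3 summits fell within 22 bp of each other. In the replicates' own lists, 79.1%, 93.5% and 89.4% of peaks had lower values, so this region was in the upper part of each list.

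The region over the start site itself, chr10:117542519-117542960, had values of 9.55 in replicate 1 and 11.2 in replicate 2 and no peak in replicate 3. Its summits were 37 and 79 bp before the start site, in the window printed above, and both also lay inside EMX2OS. Replicate 3 therefore had a called peak 1.37 kb upstream and none at the start.

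**Figure D2:**
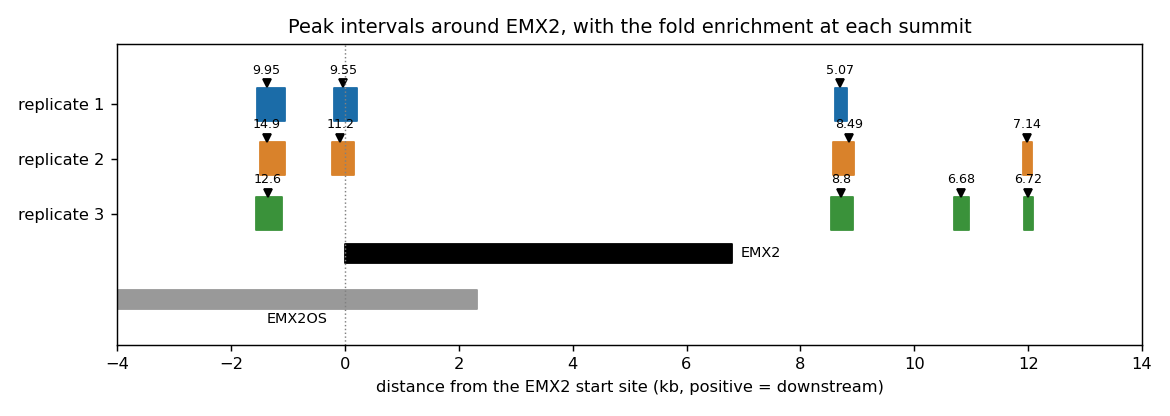
Peak intervals (coloured boxes, 1 line per replicate) around EMX2, against distance from its start site in kb, with the summit as a triangle and its fold enrichment as a number, and the spans of EMX2 (black) and EMX2OS (grey) below. The upstream region was called in all 3 replicates (9.95, 14.9 and 12.6), whereas the start site was called in replicates 1 and 2 only (9.55 and 11.2).

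Regions also lay downstream of the gene body, at 4 places up to 27.4 kb from the start site. A region 1.91 kb past the gene's end, chr10:117551290-117551688, had 5.07, 8.49 and 8.80 in replicates 1, 2 and 3 (7.45 ± 2.07, SD, n = 3), and its peak in replicate 2 held 2 summits, the only peak of the whole set to do so. The next regions, 4.03 and 5.18 kb past the gene's end, were called 1 in replicate 3 only (6.68) and 1 in replicates 2 and 3 (7.14 and 6.72). At 27.4 kb from the start, chr10:117569986-117570352, values were 11.7, 9.62 and 10.1 (10.5 ± 1.1, SD, n = 3), with summits within 7 bp of each other.

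EMX2OS, a noncoding gene transcribed antisense to EMX2, held the region with the widest spread among the 8 of all 3 replicates, at a coefficient of variation of 44.1%. At chr10:117501280-117501614, 41.3 kb upstream of EMX2, replicate 1 had 11.7 while replicates 2 and 3 had 5.94 and 5.63 (7.76 ± 3.42, SD, n = 3). Replicate 1 was high there and the other replicates were low, and without replicate 1 the mean was 5.79. Its neighbour 46.0 kb upstream was called in replicate 3 only, at 7.07.

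The distal group downstream of EMX2 held 5 regions across 24.3 kb, and its first summit lay 160.9 kb beyond the preceding one. It was called in every replicate, with 2 of its regions in replicate 1 and all 5 in replicates 2 and 3. The first, chr10:117730873-117731219, lay inside the noncoding gene LOC107984274 and had 8.78, 11.0 and 10.8 in replicates 1, 2 and 3 (10.2 ± 1.2, SD, n = 3), with summits within 13 bp. The third, chr10:117732837-117733250, had 5.73, 5.81 and 7.84 (6.46 ± 1.20, SD, n = 3).

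The other regions of the group had peaks in replicates 2 and 3 and none in replicate 1. At 189.1 kb the values were 6.75 in replicate 2 and 12.5 in replicate 3, at 191.9 kb, the region that reaches the LINC02674 window, 9.01 and 11.2, and at 212.6 kb 7.03 and 7.35. Replicate 3 was the higher of the pair in each case. These 5 regions were 182 to 206 kb from EMX2 and 250 to 274 kb from RAB11FIP2, so neither gene was within 100 kb of them. When noncoding genes could also be the nearest gene, EMX2 kept 4 of its 13 regions, and the other 9 went to EMX2OS, LOC107984274 or LINC02674.

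The number of regions was also set against the length of the locus. A gene's territory was taken as the bases closer to it than to any other protein-coding gene, and spanned 318 kb for EMX2, or 40.9 regions per Mb, against 5.11 per Mb over all genes. Of 19974 protein-coding genes, 85 (0.426%) had at least 13 regions. Their median territory was 1427 kb, and 2 of the 85, EMX2 included, had a territory no longer than that of EMX2. These counts describe the 3 lists, and no test was made of them.

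**Figure D3:**
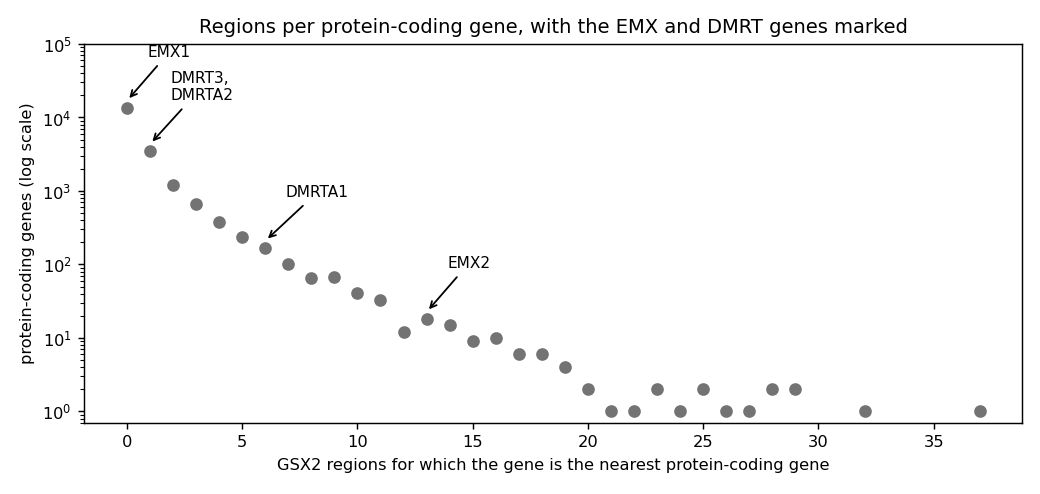
Number of protein-coding genes (vertical axis, log scale) against the number of GSX2 regions to which a gene is the nearest (horizontal axis), with each dot a count of genes and arrows at the EMX and DMRT genes. EMX1 is among the genes with none, DMRT3 and DMRTA2 have 1, DMRTA1 has 6 and EMX2 has 13.

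EMX1, the other human gene of this homeodomain pair, was nearest to no region in any replicate. It spans 72916189 to 72934891 on chromosome 2 and its territory is 34.3 kb, since the sepiapterin reductase gene SPR lies 24.0 kb away on 1 side and the sideroflexin gene SFXN5 7.14 kb away on the other. The closest summit was inside SFXN5, 20.4 kb from EMX1, in a region with 8.67 in replicate 1, 10.6 in replicate 2 and no peak in replicate 3 (chr2:72955152-72955409). The closest region of all 3 replicates was 193.0 kb away, inside the exocyst gene EXOC6B, at 11.5 ± 1.3 (SD, n = 3). Measured to start sites instead of gene spans, EMX1 would be the nearest gene of 2 regions, both inside SFXN5. Since the promoter table had no EMX1 entry, that measure used whichever end of EMX1 was closer.

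DMRTA1 had its reproducible regions far from the gene. The gene spans 22446824 to 22455740 on chromosome 9, plus strand, between the cell cycle inhibitor gene CDKN2B, 437.5 kb upstream, and ELAVL2, a neuronal RNA-binding protein gene, 1234 kb downstream. Its 6 regions lay in a territory of 845 kb, or 7.10 per Mb, near the 5.11 per Mb over all genes. Of the 6, 2 held a peak of all 3 replicates, as did 22.5% of all regions. These 2 lay 205 and 207 kb upstream of the start site, and the other 4 were each called in 1 replicate.

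The region 207 kb upstream, chr9:22239127-22239610, had the highest mean of the whole set, with 13.4, 13.3 and 12.1 in replicates 1, 2 and 3 (13.0 ± 0.7, SD, n = 3). The replicates were close together, and their summits fell within 4 bp. Its companion 2 kb nearer to the gene, chr9:22241248-22241551, had 6.97, 5.81 and 9.42 (7.40 ± 1.84, SD, n = 3), and the values of the pair did not overlap. Both lay about as far from CDKN2B, at 230.1 and 232.1 kb, as from DMRTA1, and no annotated gene span, coding or noncoding, covered them. When noncoding genes could be the nearest, both went to CDKN2B-AS1, 111.3 and 113.3 kb away, which left DMRTA1 with 0 regions of all 3 replicates.

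At the DMRTA1 gene itself peaks came from replicate 1 only. It had 7.69 at 1.38 kb before the start site and 8.48 inside the gene, 2.82 kb after the start, and replicates 2 and 3 had no peak at either place. Replicate 3 alone had 4.84 at 89.4 kb upstream and 5.72 at 613.3 kb downstream, and the downstream peak lay 604.4 kb from DMRTA1 and 629.9 kb from ELAVL2.

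**Figure D4:**
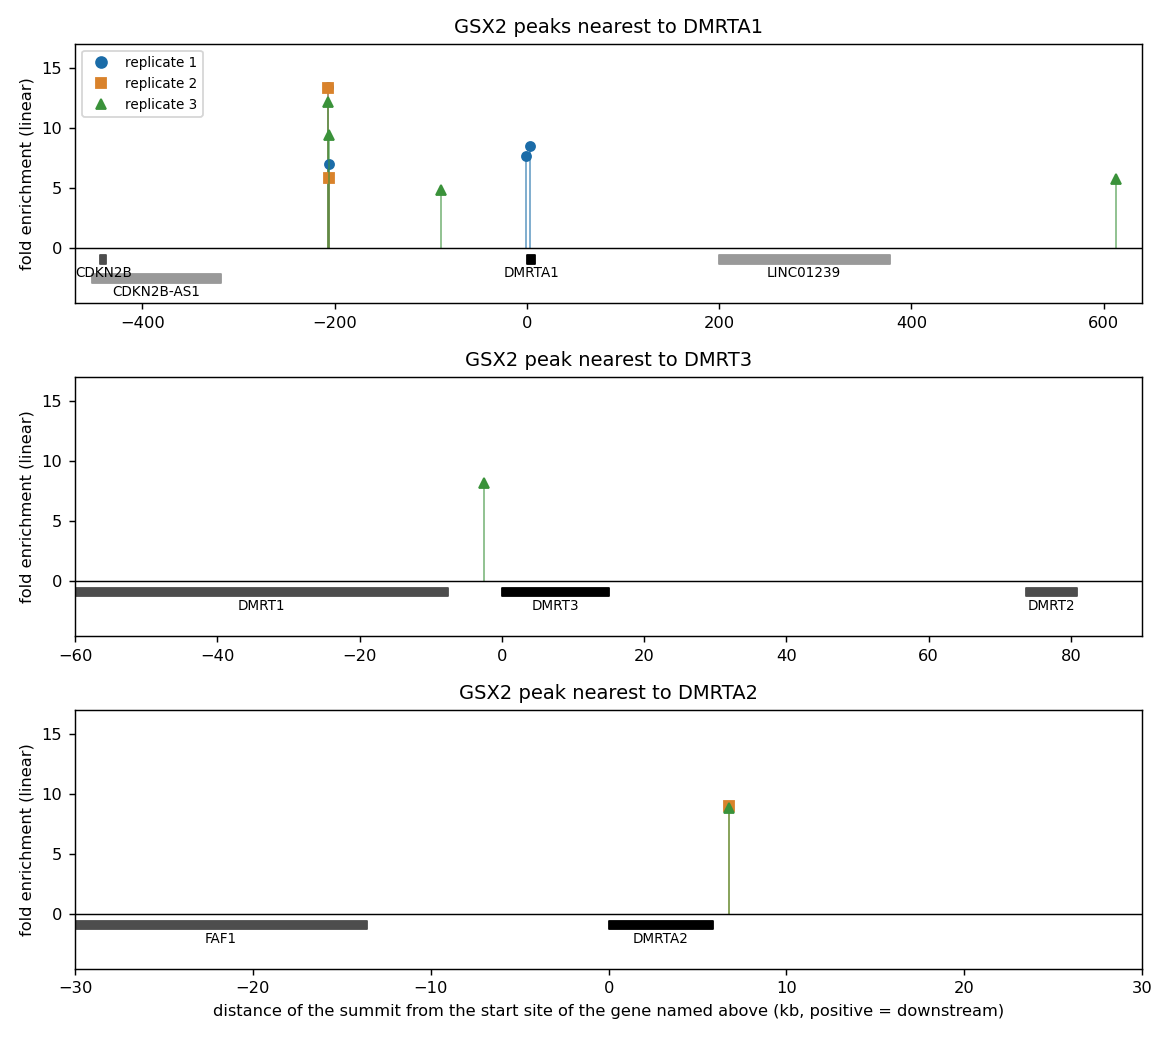
Fold enrichment of each peak (vertical axes, linear) nearest to DMRTA1, DMRT3 and DMRTA2 (top to bottom) against distance of its summit from the gene's start site (kb, positive downstream), by replicate, with gene spans as bars. All 3 replicates meet at 207 kb upstream of DMRTA1 (13.4, 13.3 and 12.1, with the first hidden by the second), while DMRT3 has a peak of replicate 3 and DMRTA2 of replicates 2 and 3.

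DMRT3 and DMRTA2 each had 1 region, and neither was called in all replicates. DMRTA2, on chromosome 1 from 50417550 to 50423443, minus strand, had a region 860 bp past its downstream end (chr1:50416449-50416790), with 9.0 in replicate 2, 8.78 in replicate 3 and no peak in replicate 1. The next closest protein-coding gene, at 20.3 kb from the summit and on the far side of DMRTA2, was FAF1, which encodes a Fas-associated adaptor. On the side of the region the flanking gene was ELAVL4, a neuronal RNA-binding protein gene 213.8 kb from DMRTA2. DMRT3, on chromosome 9 from 976655 to 991732, plus strand, had 8.11 in replicate 3 alone, 2.49 kb before its start site and 5.08 kb from DMRT1 (chr9:973872-974298).

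DMRT3 sits in a row with its DM-domain relatives DMRT1, a sex determination gene, and DMRT2, a gene of somite development. Within 500 kb of DMRT3 there were 7 regions, each of 1 replicate, and 4 of them were inside DMRT1. Measured to start sites, those 4 regions would go to DMRT3, which would then have 5. By the same measure DMRTA2 would have 3, gaining 2 from inside FAF1, of which 1 held a peak of all 3 replicates (8.98, 6.87 and 8.06 in replicates 1, 2 and 3). DMRT3 was thus without a region of 2 or more replicates by either measure.

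Nearly all regions of the EMX and DMRT genes lay outside the genes themselves. Of the 21, 1 (4.76%) had its strongest summit inside the nearest protein-coding gene, against 50.9% of all regions. Another 8 (38.1%) were outside but within 10 kb of the gene, against 11.7% of all, and 8 (38.1%) were more than 100 kb away, against 20.8% of all. The member genes are short, from 5894 to 18703 bp, and the part of gene length in these shares was not tested. A peak of all 3 replicates was held by 8 of the 21 (38.1%), against 22.5% of all regions. The 21 regions are few and not independent, since 13 were nearest to EMX2 and 6 to DMRTA1. The difference between these shares was not tested.

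Replicate 1 contributed fewest of the 21 regions although its list was the longest. It had a peak in 11 of them, replicate 2 in 14 and replicate 3 in 18, against 9852, 7439 and 9094 of all 15743 regions for replicates 1, 2 and 3. Of the 6 regions called in 2 replicates, 5 lacked replicate 1, against 895 of 3568 (25.1%) among all regions called in 2. Without replicate 1, 13 regions were called in both other replicates, against 8 called in all 3, and 10 of those 13 belonged to EMX2. Over the whole map, 895 regions lacked only replicate 1, beside 3537 called in all 3. Whether depth has a part in this was not tested, since the lists hold no counts.

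**Figure D5:**
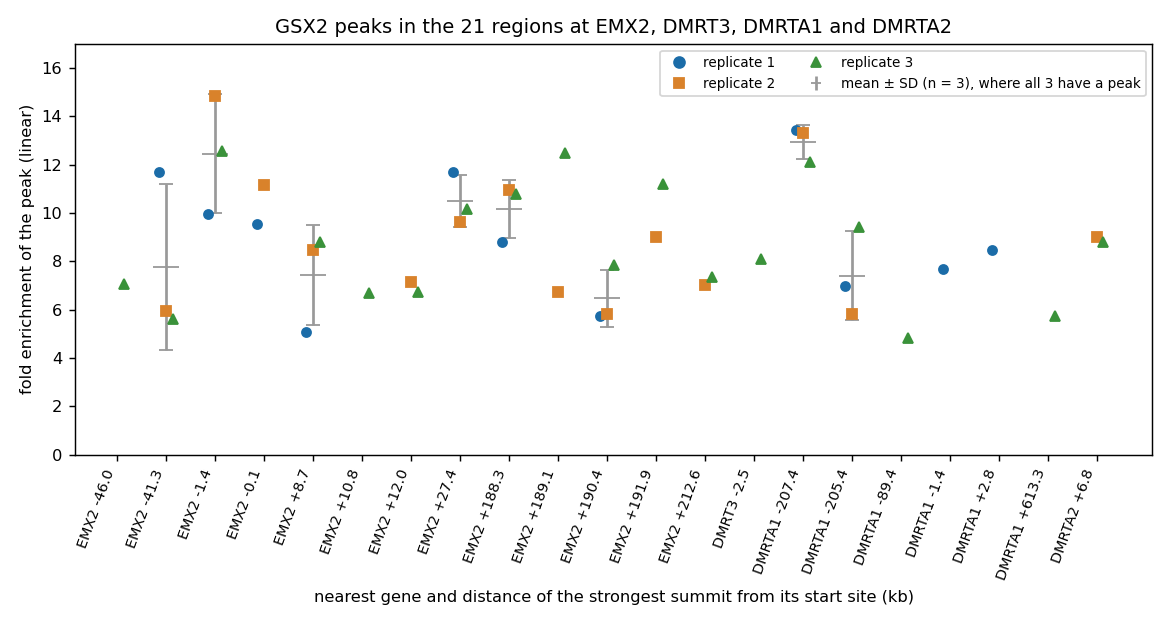
Fold enrichment (vertical axis, linear) of every peak in the 21 regions, by replicate, ordered by gene and by distance of the strongest summit from its start site in kb, with grey bars for mean ± SD where all 3 replicates had a peak. The highest means are at DMRTA1, 207 kb upstream (13.0), and at EMX2, 1.37 kb upstream (12.5), and several regions show a point of replicate 3 alone.

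Ordered by mean fold enrichment, the 8 regions of all 3 replicates ran down from DMRTA1 at 207 kb upstream (13.0) through EMX2 at 1.37 kb upstream (12.5), 27.4 kb downstream (10.5), 188.3 kb downstream (10.2), 41.3 kb upstream (7.76) and 8.71 kb downstream (7.45) to DMRTA1 at 205 kb upstream (7.40) and EMX2 at 190.4 kb downstream (6.46). In all 7 pairs of neighbours in this order the ranges of replicate values overlapped, so the order between neighbours is not resolved. The first and the last did not overlap, at 12.1 to 13.4 and 5.73 to 7.84. The 8 regions had a median of 8.97, against a median of 9.49 over all regions of 3 replicates, and their median coefficient of variation between replicates was 19.1%, against 19.5% over all. Both medians lay near those of the whole map.

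At the level of genes, 4 of the 5 had at least 1 region, against 32.6% of all protein-coding genes, and 2 of 5, EMX2 and DMRTA1, had at least 2 regions of all 3 replicates, against 3.25% of all. Over at least 1 such region the count was the same 2 of 5, against 12.3% of all. With 5 members these shares are coarse, and they were not matched for territory, whose median over all genes was 57.7 kb. The members were also chosen with earlier results of these data known, so they are not an independent set.

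Other genes of the pallial programme, and relatives of the EMX and DMRT genes, were counted in the same way, in 6 lists with 47 genes. Of these, 21 (44.7%) had a region of all 3 replicates, beside the 12.3% of all genes, and the lists were not matched to all genes for territory. The lists were also chosen with earlier results of these data known, so their share is not that of an independent set. Factors that pattern cortical progenitors had 10 of 12, led by the orphan nuclear receptor genes NR2F1 (31.5, 32.1 and 19.97 in replicates 1, 2 and 3) and NR2F2 (18.4, 25.9 and 19.8), in regions 336.8 and 483.1 kb from the gene. Genes of the cortical hem, the signalling centre at the medial edge of the pallium, had 3 of 10, led by the BMP ligand gene BMP7 (31.8, 24.7 and 27.9) and the zinc finger gene ZIC1 (9.35, 10.7 and 11.3), in regions 243.7 and 529.5 kb from the gene. Genes of the boundary between pallium and subpallium had 3 of 7, with the AP-2 family gene TFAP2D (20.4, 14.8 and 24.3) and DBX1, a homeobox gene of ventral pallium (10.4, 14.8 and 8.60), both inside the gene.

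Proneural and neuronal genes of the pallium had 3 of 9, with NEUROG2, which drives glutamatergic neurogenesis (20.3, 18.1 and 18.0), and NEUROD1, a gene of differentiating neurons (6.36, 8.73 and 6.96), at their head, in regions 7.49 and 62.5 kb from the gene. All replicate values of NR2F1, NR2F2, BMP7, TFAP2D and NEUROG2 given here were above the 12.1 to 13.4 of the strongest DMRTA1 region. Among DM-domain relatives 1 of 6 had such a region, DMRTB1 (7.30, 11.8 and 14.4), and DMRTC1, DMRTC1B, DMRTC2 and DMRT2 had no region at all. Among homeobox relatives of the EMX genes 1 of 3 had one. That was VAX1, a ventral forebrain and eye gene upstream of EMX2 on the same chromosome, with 3 regions of all 3 replicates, the highest at 7.24, 10.4 and 9.85, while VAX2 and NOTO had none.

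By the highest value in each replicate on a log2 scale, with 0 for no peak, the list genes closest to each member over the 3 replicates were the zinc finger genes SP8 for EMX2 and ZIC1 for DMRTA1, the homeobox gene MSX1 for DMRT3 and SFRP2, a secreted Wnt modulator gene, for DMRTA2. Their Euclidean distances, in log2 units, were 0.41, 0.33, 0.25 and 0.51. SP8 had 15.1, 16.5 and 11.8, beside 11.7, 14.9 and 12.6 for EMX2. ZIC1 had 13.4, 10.7 and 11.3, beside 13.4, 13.3 and 12.1 for DMRTA1. The highest values of a gene can come from different regions. For EMX2 the 11.7 was from 41.3 kb upstream, and the 14.9 and 12.6 were from 1.37 kb upstream. The 13.4 of ZIC1 was likewise not from the region given above, which had 9.35 in replicate 1. MSX1 had 6.84 in replicate 3 alone, as DMRT3 had 8.11 there, and SFRP2 had 11.4 and 11.5 in replicates 2 and 3, beside 9.0 and 8.78 for DMRTA2. Both of these pairs share the replicates that lack a peak, which count as 0. The second closest list genes stood at 2.43 for DMRT3 and 2.06 for DMRTA2.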

How the data were processed

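GSX2 binding was measured by ChIP-seq in 3 replicates of 1 group. The submitters' processing notes name the build hg38 and, without versions, MACS3, Bowtie2, Trim Galore, SAMtools and deepTools. For settings and the control of the peak caller, nothing is given in the sources used here. What the authors deposited is 1 narrowPeak list per replicate, each with a fold enrichment (a linear ratio to the caller's background), a −log10 p and a −log10 q for every summit. The smallest deposited −log10 q was 3.0 in each list. The deposited score follows from the −log10 q and was not used. The summit offset, in bp, was deposited with each peak.

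Lines that share an interval were reduced to the summit of highest fold enrichment, which left 9936, 7535 and 9204 intervals, of which 9859, 7471 and 9122 on chromosomes 1 to 22 and X were used. The nearest of 19974 protein-coding spans (RefSeq, GRCh38.p14) was found for each, and intervals were merged over replicates by 1 bp of overlap. In none of the 21 member regions were peaks assigned to different genes. The annotation gives spans without exons, so exon, intron and UTR are not stated. Promoter windows and strands are from RefSeq tables of the same build. The merging and assignment steps were tested on simulated data. Work was done in Python 3.11.15 with pandas 2.3.3.

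All comparisons are descriptions without a test, since there is 1 group. The members and gene lists were chosen with earlier results of these data known. All 5 members were named, with their flanking protein-coding genes, the 2 genes of each list with the highest mean among regions of 3 replicates, and the list gene closest to each member. Regions inside DMRT1, FAF1, SFXN5 and EXOC6B, genes chosen after their values were seen, are given where they lie nearest to a member. Alternatives covered the q threshold, the overlap, each replicate, start sites, noncoding genes and distance.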

Additional observations from a re-analysis of the deposited data

How the results depend on the processing

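Across 31 alternative values of the summary counts and medians, 22 stayed within 1.5 times or 1 SD of the value reported and 9 moved. Requiring a −log10 q of at least 10 left 4 of the 8 regions of all 3 replicates. Counting a region as nearest to a noncoding gene where one was closer left 9 of the 21 regions, 2 of them with all 3 replicates, and a limit of 100 kb left 13 and 4. Peaks in at least 2 replicates gave 14 recurrent regions. Leaving out 1 replicate gave 8 to 13 recurrent regions, the highest without replicate 1, and a median fold enrichment of 9.23 to 9.35, against 8.97. Among these medians, the 9.35 without replicate 3 was counted as moved, by the limit of 1 SD. The EMX2 promoter window held 3 TAAT words on both strands against 1 TAATTA. The half-overlap rule, the mean over summits and scaling by each list's median moved none of the summary values past these limits. No paired analysis was possible because the input libraries were not analysed here, which leaves 1 group. Without counts, depth is unknown, so no limit could be set for a missing peak.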

Other observations

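Between PDZD8 and RAB11FIP2, 629.5 kb in which EMX2 is the only protein-coding gene, 17 regions lay, 13 nearest to EMX2, 4 nearest to RAB11FIP2 and none nearest to PDZD8, and 7 of the 17 held a peak of all 3 replicates. The 1 of those 7 that was assigned to RAB11FIP2 lay 335.9 kb from EMX2 and 119.5 kb from RAB11FIP2, with 9.15, 11.1 and 8.10 in replicates 1, 2 and 3. Within 500 kb of EMX2 there were 27 regions, 11 of them of all 3 replicates. The same window held 10 regions around EMX1 (3 of all 3 replicates), 7 around DMRTA2 (1), 7 around DMRT3 (0) and 5 around DMRTA1 (2). Each window covered the gene and 500 kb on either side. Over all genes there were 5.11 regions per Mb of territory, and 22.5% of all regions held a peak of all 3 replicates.

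The highest single value at the row of DMRT genes on chromosome 9 was a peak inside DMRT1, 41.1 kb from DMRT3, at 14.4 in replicate 3 (chr9:935415-935636). Neither replicate 1 nor replicate 2 had a peak there.

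Among promoter windows, 15.3% of the 215 that overlapped a region of all 3 replicates and 10.6% of the 1086 that overlapped any region held TAATTA, against 4.85% of all 34943. The median GC content of the 3 sets was 57.0%, 59.7% and 58.7%. These are descriptions, and windows of 1 gene can overlap.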
